A study of Homo sapiens with 8 samples.

Results

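Cytochrome P450 (CYP) genes were described in Hep3B cells, a human hepatocellular carcinoma line, with SOX4 knocked out or STAT6 knocked down. The members were the genes of the 2 deposited RNA-seq tables whose symbols follow the P450 pattern (CYP, family number, subfamily letter, gene number), except CYP51A1. They were 34 of 16169 genes listed in either table. The table of the knockout comparison listed all 34, and that of the siRNA comparison listed 23. By family number, 18 belonged to families 1 to 3, 4 to family 4 and 12 to families 7 and above.

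The 8 libraries fell into 4 groups of 2. The first pair of groups was Hep3B, the unmodified line, and SOX4-/-, Hep3B cells edited with CRISPR/Cas9 and, per the study's methods, kept in puromycin. The second pair was control si, Hep3B transfected with a scramble siRNA, and STAT6 si, Hep3B transfected with an siRNA against STAT6, so that both carried a transfection that the first pair did not. The study made 2 knockout lines, and the labels do not say whether the SOX4-/- libraries 1 and 2 are 1 line each or replicates of 1 line. Nothing in the labels says that libraries came from separate cultures, so p-values measure only the spread between these libraries, which may be technical.

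P450 enzymes are heme proteins of the endoplasmic reticulum and mitochondria that insert an oxygen atom into their substrates, with electrons from cytochrome P450 reductase or, in mitochondria, from adrenodoxin. Enzymes of families 1 to 3 oxidize most drugs and environmental chemicals in the liver and are induced by ligand-activated receptors (AHR for family 1, the nuclear receptors NR1I2 and NR1I3 for families 2 and 3). Family 4 oxidizes fatty acids and eicosanoids. The higher families act on sterols, bile acids, steroid hormones, retinoic acid and vitamin D. Liver cancer lines express few of these genes at the level of hepatocytes.

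The promoters of the genes on which the results below turn are shown as the 250 bases before the RefSeq start (GRCh38.p14), read 5′ to 3′ on the strand of the gene. RefSeq promoters matched 26 of the 34 members. Capitals mark words of 3 motifs searched on both strands: the SOX word (CAAAG or CAATG after a pair of bases that are each A or T), the STAT6 word (TTC and GAA with 4 bases between them) and the core of the AHR response element, GCGTG. No printed promoter holds overlapping words.
CYP2B6 (chr19:40991032-40991281, plus strand): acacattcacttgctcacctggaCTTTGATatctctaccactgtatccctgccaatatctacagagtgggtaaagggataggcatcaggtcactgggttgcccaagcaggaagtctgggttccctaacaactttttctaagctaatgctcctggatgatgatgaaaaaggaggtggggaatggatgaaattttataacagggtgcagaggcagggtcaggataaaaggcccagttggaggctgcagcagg
CYP3A7 (chr7:99735197-99735446, minus strand): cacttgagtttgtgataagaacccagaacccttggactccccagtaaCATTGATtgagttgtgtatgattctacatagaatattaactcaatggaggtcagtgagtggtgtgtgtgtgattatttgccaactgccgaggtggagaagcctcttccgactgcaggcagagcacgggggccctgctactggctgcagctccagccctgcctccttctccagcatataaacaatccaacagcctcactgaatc
CYP3A5 (chr7:99679997-99680246, minus strand): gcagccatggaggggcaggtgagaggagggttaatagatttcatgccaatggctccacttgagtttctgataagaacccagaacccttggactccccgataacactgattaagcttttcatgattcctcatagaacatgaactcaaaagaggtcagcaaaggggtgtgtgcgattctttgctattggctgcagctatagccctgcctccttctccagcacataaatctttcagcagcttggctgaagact
CYP4F11 (chr19:15934868-15935117, minus strand): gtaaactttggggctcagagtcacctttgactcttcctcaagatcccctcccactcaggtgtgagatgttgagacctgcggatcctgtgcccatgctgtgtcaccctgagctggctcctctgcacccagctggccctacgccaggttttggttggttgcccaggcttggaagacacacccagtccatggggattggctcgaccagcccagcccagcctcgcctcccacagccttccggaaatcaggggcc
CYP2S1 (chr19:41192969-41193218, plus strand): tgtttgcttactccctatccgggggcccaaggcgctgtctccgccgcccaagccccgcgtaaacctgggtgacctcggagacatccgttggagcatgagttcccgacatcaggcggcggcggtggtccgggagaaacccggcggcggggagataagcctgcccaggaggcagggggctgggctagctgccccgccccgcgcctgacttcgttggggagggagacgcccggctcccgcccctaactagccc
CYP1A1 (chr15:74725529-74725778, minus strand): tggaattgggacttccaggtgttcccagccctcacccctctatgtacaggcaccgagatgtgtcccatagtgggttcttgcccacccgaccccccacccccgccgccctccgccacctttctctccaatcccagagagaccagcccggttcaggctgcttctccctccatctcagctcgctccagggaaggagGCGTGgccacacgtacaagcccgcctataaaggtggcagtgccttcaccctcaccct
The CYP2B6 promoter held 1 SOX word, which began 227 bases before the start, and the CYP3A7 promoter held 1, which began 203 bases before it. The CYP3A5, CYP4F11 and CYP2S1 promoters held none of the 3 motifs, and that of CYP1A1 held 1 AHR core, 57 bases before the start. In the stretch of the CYP3A5 promoter that aligns with the CYP3A7 word, anchored on 30 identical bases that end 5 bases before it, the sequences differed by the substitution T3C (positions counted from 1 at the 5′ end of the word as printed for CYP3A7). Across members, 8 of the 26 promoters held a SOX word, 0 the STAT6 word and 6 the AHR core, against 17.9%, 5.38% and 32.2% of all 35116 promoters of the same length. A match of letters is a description of the sequence and does not show binding.

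Levels are given as TMM-normalized CPM, counts scaled to 1 common library size over the 8 libraries. Library totals ranged from 16266282 to 25353113 estimated counts, so that 3 counts, taken as the limit of a count of 0, stood for between 0.0993 and 0.256 CPM. These limits cover counting error only. As the tables come from 2 experiments, differences were tested within a table, except for the contrast between the perturbations. A gene is called where its adjusted p was below 0.05 in the quasi-likelihood test of edgeR. STAT6 measured 29.1 and 12.4 CPM in Hep3B against 2.42 and 1.98 in SOX4-/-. In the siRNA table it had 46.2 and 33.9 CPM in control si and 11.5 and 6.49 in STAT6 si. SOX4 measured 728 and 249 CPM in Hep3B against 260 and 271 in SOX4-/-, groups that overlap, so the transcript level does not check the knockout label. Hepatocyte markers fixed for the report were detected in every library (ALB, 5920 to 24863 CPM). The 9 markers summed to 14779 and 10923 CPM in Hep3B and to 45622 and 27997 in SOX4-/-. Of the 9, 3 (APOA1, TTR and FGB) were called higher in SOX4-/-. Among all genes tested 5.89% were called, 4.5% higher. AFP was the 1 marker of the 9 with a log2 fold change below 0 (-0.76, SE 0.72), with 136 and 28.7 CPM in Hep3B against 65.8 and 27.8. Of the stellate or fibroblast markers, LUM rose from 0.569 and 0.693 CPM to 74.7 and 48.7, and PDGFRB was also called higher. COL1A1 had 0.88 and 5.1 CPM in Hep3B against 5.1 and 8.4 in SOX4-/- (log2 fold change 1.24, SE 0.79) and was not called. DCN was not listed. The 3 listed genes of that set summed to 4.04 and 6.98 CPM in Hep3B against 88.5 and 69.6 in SOX4-/-. The defining leukocyte and endothelial genes PTPRC and PECAM1 lay at 0 to 0.692 CPM, and CD3E, VWF, CDH5 and KDR were not listed. The 4 listed leukocyte markers, with CD68, CD14 and LYZ among them, summed to 82.7 and 33.5 CPM in Hep3B and to 166 and 396 in SOX4-/-, and 0 were called. The log2 fold changes of the 3 tested ones (CD14, CD68 and LYZ) ran from 1.22 to 3.12. The 4 cholangiocyte markers summed to 881 and 645 CPM and to 910 and 1086, and 0 were called. LYZ alone had 42.4 and 5.69 CPM in Hep3B against 98.9 and 309 in SOX4-/-. The part of these shifts in the results below was not tested, and in bulk RNA fewer expressing cells and less RNA per cell cannot be told apart.

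CYP2B6, which oxidizes bupropion, efavirenz and cyclophosphamide, carried much of the P450 signal of these cells. Over the 23 P450 genes listed in both tables the summed level was 493 and 152 CPM in Hep3B, of which CYP2B6 made up 53.3% and 15.7%. In SOX4-/- the sum was 410 and 277 CPM, and the share of CYP2B6 was 0.266% and 1.16%. In control si the sum was 459 and 380 CPM with CYP2B6 shares of 53.2% and 49.2%, and in STAT6 si it was 531 and 331 CPM with shares of 52.6% and 44.4%. The sums of Hep3B and SOX4-/- overlapped, whereas the shares of CYP2B6 did not. Without CYP2B6 the sum was 230 and 128 CPM in Hep3B against 409 and 274 in SOX4-/-.

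To compare genes with each other, levels were divided by transcript length (CPM per kilobase). In Hep3B, CYP2B6 ranked first with a mean of 46.8 CPM per kilobase (7.8 and 85.8 in the 2 libraries), followed by CYP27A1 with 13.1 (10.6 to 15.5), CYP20A1 with 11.7 (10.4 to 13), CYP1A1 with 9.72 (1.36 to 18.1) and CYP26B1 with 9.46 (3.87 to 15.1). Each of these 5 overlapped its neighbour in the order. In SOX4-/-, CYP1A1 ranked first with 37.1 CPM per kilobase (16.5 to 57.6), followed by CYP27A1 with 26.1 (23.8 to 28.3), CYP20A1 with 13.2 (12.2 to 14.2), CYP4V2 with 12.6 (8.59 to 16.6) and CYP3A7 with 12.4 (6.49 to 18.4). CYP1A1 and CYP27A1 overlapped there, and both libraries of CYP27A1 lay above those of CYP20A1. Control si and STAT6 si shared the order of their first 4 genes, which was CYP2B6, CYP27A1, CYP1A1 and CYP20A1. Their mean levels per kilobase were 70.3, 33.7, 10 and 9.15 in control si and 69.6, 45.2, 9.61 and 9.43 in STAT6 si.

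The comparison of SOX4-/- with Hep3B asked which genes change when SOX4 is lost. Of the 34 P450 genes, 25 had enough counts to be tested, and 4 were called: CYP2B6 was lower, and CYP2S1, CYP3A5 and CYP4F11 were higher. Of all 14415 genes tested, 5.89% were called (4.5% higher and 1.39% lower), against 16% of the 25 P450 genes. The difference between these percentages rests on 4 genes and was not tested. Both SOX4-/- libraries lay above both Hep3B libraries for 10 of the 25 and below them for 2, whereas 28.5% and 29.7% of all tested genes did so. The median log2 fold change of the 25 was 0.55, against 0.01 over all genes tested, and 18 of them had a value above 0. Of the 25, CYP2W1, CYP3A5, CYP4F11 and CYP4F2 passed the count filter only through SOX4-/- and so had to be higher there, and CYP27C1 passed only through Hep3B, so these counts and the median are in part set by the filter.

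The 4 calls needed both SOX4-/- libraries: without either one, 0 P450 genes were called, and of all genes 73 were called without library 1 and 21 without library 2. Their log2 fold changes stayed large then: -5.44 and -6.97 for CYP2B6, 3.84 and 3.0 for CYP2S1 and 4.48 and 4.05 for CYP4F11. With the median-of-ratios scaling the 4 were called together with CYP3A7, at log2 fold changes of -6.06 for CYP2B6 and 3.45 for CYP2S1. The directions of CYP3A5 and CYP4F11 were set by the count filter and could not turn with the scaling.

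In Hep3B libraries 1 and 2, CYP2B6 reached 263 and 23.9 CPM (5076 and 483 counts), and in SOX4-/- 1.09 and 3.21 CPM (33 and 65 counts). The Hep3B libraries differed 11-fold from each other, and both lay above both SOX4-/- libraries. The log2 fold change was -6.04 (SE 1.18, adjusted p = 0.0331, edgeR), that is, 65.7-fold lower. Without Hep3B library 1 it was -3.47 (adjusted p = 0.0049), so the size of the fall rested on that library while the call did not. In the other table, control si had 244 and 187 CPM, values nearer to Hep3B library 1 than to library 2.

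CYP2S1 lies 175 kb downstream of CYP2B6 on chromosome 19 (chr19:41193219-41207539 against chr19:40991282-41018398, GRCh38.p14, both on the plus strand) and went the other way. It encodes an extrahepatic enzyme known to be inducible through AHR. Its level was 0.569 and 0.792 CPM in Hep3B against 5.3 and 9.48 in SOX4-/-, with no overlap. The log2 fold change was 3.49 (SE 0.63, adjusted p = 0.0279), or 11.2-fold higher. Its level in control si, 3.2 and 2.5 CPM, lay between those 2 groups.

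Of the other family 2 genes 0 were called by edgeR. CYP2J2, an epoxygenase of arachidonic acid, had 4.92 and 6.88 CPM in Hep3B against 19.8 and 16.2 in SOX4-/-, groups that do not overlap. Its log2 fold change of 1.67 (SE 0.43, adjusted p = 0.0628, edgeR) missed the threshold, while DESeq2 called it (adjusted p = 0.00804), as did edgeR without Hep3B library 2 (1.91, adjusted p = 0.0369). Over its alternatives the adjusted p ran from 0.00804 to 0.328. CYP2W1, an enzyme found mainly in tumours and fetal tissue, had 0.207 and 0.445 CPM in Hep3B against 1.26 and 0.988 (log2 fold change 1.83, SE 0.76, adjusted p = 0.179). CYP2R1, the main hepatic vitamin D 25-hydroxylase, had 11 and 9.7 CPM in Hep3B against 11.9 and 10.6 in SOX4-/- (log2 fold change 0.19, SE 0.41, adjusted p = 0.81). CYP2C18 had 0.673 and 1.48 CPM in Hep3B against 1.19 and 0.84 in SOX4-/-, with overlap. CYP2U1 and CYP2D6 also overlapped, with log2 fold changes of 0.92 and 0.41.

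CYP1A1 oxidizes polycyclic aromatic hydrocarbons and is the classical AHR target. It had 48.6 and 3.66 CPM in Hep3B against 155 and 44.3 in SOX4-/-. The groups overlapped because Hep3B library 1 was 13.3-fold above library 2, and the log2 fold change of 1.99 (SE 1.05, adjusted p = 0.274) was within that spread. Without Hep3B library 1 it was 4.79 and was called (adjusted p = 0.00424), and without library 2 it was 1.08 (adjusted p = 0.304). CYP1B1, which hydroxylates estradiol, had 2.17 and 3.66 CPM in Hep3B against 10.8 and 5.63 in SOX4-/- (log2 fold change 1.57, SE 0.58, adjusted p = 0.142), without overlap. CYP1A2, the third member of the family, had 0 counts in both Hep3B libraries and 13 and 6 in SOX4-/-, and was not tested.

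The CYP3A genes lie side by side on chromosome 7 (chr7:99648194-99784184, 136 kb) and include the main drug-metabolizing enzyme of adult liver, CYP3A4, and its fetal counterpart, CYP3A7. In all 3 listed members both SOX4-/- libraries lay above both Hep3B libraries, in CYP3A4 by as little as 2 counts. Of all tested genes 28.5% did so, and CYP3A5 passed the count filter only through SOX4-/-. CYP3A5 had 3 counts in each Hep3B library and 53 and 29 in SOX4-/- (1.75 and 1.43 CPM). Its SOX4-/- mean was 10.5-fold that of the 3 counts observed per Hep3B library (adjusted p = 0.0474, edgeR). A ratio to so few counts is not a lower bound. In the SOX4-/- libraries 64.2% and 45% of these counts were assigned to a noncoding RefSeq transcript of the gene, NR_033807. CYP3A7 was the most abundant of the 3, with 3.42 and 0.544 CPM in Hep3B against 36.2 and 12.8 in SOX4-/-. Its log2 fold change was 3.69 (SE 0.90, adjusted p = 0.054), just beyond the threshold, and lay between 2.73 and 5.51 when single libraries were left out. CYP3A4 had 0 counts in both Hep3B libraries and 16 and 2 in SOX4-/-, and was not tested. Reads shared by near-identical CYP3A transcripts were split by estimation, and CYP3A7 also overlaps the readthrough gene CYP3A7-CYP3A51P (0.362 and 0 CPM in Hep3B, 3.67 and 1.28 in SOX4-/-), so the division among these genes is uncertain.

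Family 4 was led by CYP4F11, an omega-hydroxylase of long-chain fatty acids. It had 0.104 and 0.247 CPM in Hep3B (2 and 5 counts) and 2.91 and 3.9 in SOX4-/- (88 and 79 counts), with no overlap. The log2 fold change was 4.29 (SE 0.78, adjusted p = 0.0281), or 19.6-fold higher, and rests on few Hep3B counts. CYP4F2, which hydroxylates vitamin K and leukotriene B4, had 0 and 4 counts in Hep3B and 18 and 13 in SOX4-/- (log2 fold change 2.62, SE 1.11, adjusted p = 0.187). CYP4F3 had 1 and 3 counts in Hep3B and 77 and 10 in SOX4-/- and was not tested. Set against 3 counts per Hep3B library its SOX4-/- mean was 10-fold higher, which is not a lower bound. These 3 genes lie within 294 kb of chromosome 19 (chr19:15640897-15934867), and their shared reads are likewise uncertain. All 3 had both SOX4-/- libraries above both Hep3B libraries, as did 28.5% of all tested genes. CYP4F11 and CYP4F2 passed the count filter only through SOX4-/-. CYP4V2, the fatty acid hydroxylase of the retina and other tissues, is on another chromosome and was the most abundant member of the family. It had 18.7 and 7.27 CPM in Hep3B against 34 and 17.5 in SOX4-/-, which overlap (log2 fold change 1.05, SE 0.56, adjusted p = 0.281). The value ran from 0.47 to 1.85 when single libraries were left out and was called without Hep3B library 1 (1.85, adjusted p = 0.0421, edgeR, the lowest of its alternatives, which reached 0.8).

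Families 7 and above had 0 calls among 9 tested genes, of which 2 had an unadjusted p-value below 0.05, and DESeq2 also called 0. Of all genes 5.89% were called and 26% had such a p-value, so neither count is a result about these families. CYP27A1, the mitochondrial sterol 27-hydroxylase of the alternative bile acid pathway, had 35.4 and 24.3 CPM in Hep3B against 54.5 and 64.8 in SOX4-/-, without overlap. Its log2 fold change of 1.05 (SE 0.37, adjusted p = 0.128) missed the threshold. CYP7B1, the oxysterol 7-hydroxylase that follows it, had 3.31 and 4.01 CPM in Hep3B against 5.16 and 4.15 in SOX4-/- (log2 fold change 0.41, SE 0.52, adjusted p = 0.654). CYP26B1, which degrades retinoic acid, had 68.2 and 17.5 CPM in Hep3B against 28.3 and 45.1 in SOX4-/-. Its SOX4-/- values lay between the 2 Hep3B values, and its log2 fold change of -0.18 (SE 0.61, adjusted p = 0.879) was above 0 without Hep3B library 1 (1.08). CYP20A1, a P450 of unknown substrate, was among the steadiest, with 20.2 and 25.3 CPM in Hep3B against 23.7 and 27.7 in SOX4-/- (log2 fold change 0.24, SE 0.35, adjusted p = 0.708). CYP27C1, singled out after its values were seen, converts retinol to dehydroretinol and had 26 and 13 counts in Hep3B against 3 and 0 in SOX4-/-. Set against 3 counts per SOX4-/- library its Hep3B mean was 8.04-fold higher, a ratio from few counts and not a lower bound. Its adjusted p was 0.079 (edgeR). The 4 other tested genes (CYP11A1, CYP21A2, CYP27B1 and CYP39A1) overlapped between the groups, with log2 fold changes between -1.14 and 0.55.

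By group, the median log2 fold change was 1.57 over the 13 tested genes of families 1 to 3, 2.62 over the 3 of family 4 and -0.18 over the 9 of families 7 and above, beside 0.01 over all genes tested. Setting CYP3A5 and CYP27C1 at their ratios to 3 counts left the 3 medians at these values. Above 0 lay 11 of 13, 3 of 3 and 4 of 9 genes in the same order. These counts describe the genes that passed the count filter, which fixed the direction of 2 of the 13, 2 of the 3 and 1 of the 9, and 9 of the 34 members did not pass it. These 9 were CYP1A2, CYP2C8, CYP2C19, CYP2D7 (a pseudogene), CYP3A4, CYP4F3, CYP19A1, CYP24A1 and CYP26A1. The highest level among them was 2.69 CPM, that of CYP26A1, a retinoic acid hydroxylase, in Hep3B library 1, and its other 3 libraries of that table had 0.148 to 0.247 CPM.

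The comparison of STAT6 si with control si asked the same for STAT6, whose transcript was called lower in SOX4-/- (log2 fold change -3.18, SE 0.57, adjusted p = 0.0275, edgeR). In STAT6 si the target itself had a log2 fold change of -2.22 (SE 0.72, unadjusted p = 0.00834, adjusted p = 1.00, edgeR), without overlap, and was not called. Of the 23 P450 genes of this table, 18 were tested and 0 were called by edgeR. The 5 not tested (CYP2C18, CYP2D6, CYP2D7, CYP24A1 and CYP26A1) had at most 0.627 CPM in any library. None of the 18 had an unadjusted p-value below 0.05, and DESeq2 also called 0. Among all 13554 genes tested, 0% were called, and 14 had an unadjusted p-value below 0.05. Values within a group moved with the library number in this table: the ratio of library 2 to library 1 was related to the GC content of genes in control si (Spearman's rho -0.76 across genes, which are not independent replicates) and STAT6 si (-0.82), against -0.09 in Hep3B and 0.29 in SOX4-/-. Both STAT6 si libraries lay above both control si libraries in 1 of the 18 genes and below them in 2, beside 3.27% and 4.41% of all tested genes.

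CYP2B6, the gene that fell in SOX4-/-, had 244 and 187 CPM in control si and 279 and 147 in STAT6 si, with overlap (log2 fold change -0.08, SE 0.57, adjusted p = 1.00, edgeR). CYP1A1 had 25.1 and 28.6 CPM in control si and 23.6 and 28 in STAT6 si. CYP27A1 had 101 and 52.9 CPM in control si and 152 and 54.4 in STAT6 si, so that its first libraries were the higher ones in both groups. CYP26B1 had 39.6 and 39.3 CPM in control si and 23.7 and 25.9 in STAT6 si. It was the most abundant P450 gene without overlap between the groups, with a log2 fold change of -0.71 (SE 0.65, adjusted p = 1.00).

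CYP2W1 was the other gene below control si in both libraries, with 0.8 and 1.15 CPM in control si and 0.598 and 0.313 in STAT6 si, the lowest log2 fold change of the 18 (-1.20, SE 0.85, adjusted p = 1.00). CYP11A1, the side-chain cleavage enzyme of steroid synthesis, was the gene above, with 2.09 and 1.44 CPM in control si and 3.59 and 2.51 in STAT6 si and the highest log2 fold change (0.73, SE 0.76, adjusted p = 1.00). CYP2S1, called higher in SOX4-/-, had 3.2 and 2.5 CPM in control si and 5.38 and 2.42 in STAT6 si, with overlap. CYP3A7 had 5.05 and 4.94 in control si and 3.07 and 9.22 in STAT6 si. CYP2J2 had 7.63 and 9.75 CPM in control si and 9.73 and 11.1 in STAT6 si, and both genes overlapped between the groups. CYP3A5 and CYP4F11 were not listed in this table.

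The remaining named genes of the table also overlapped between its groups. CYP1B1 had 1.11 and 2.16 CPM in control si and 1.02 and 1.66 in STAT6 si, and CYP2R1 had 3.2 and 3.65 against 2.48 and 4.48. CYP4V2 had 6.03 and 11.9 CPM in control si and 5.21 and 10.5 in STAT6 si, and CYP7B1 had 1.17 and 3.07 against 1.02 and 1.97. CYP20A1 had 12.9 and 22.8 CPM against 14.9 and 21.8, and CYP2C18 had 0.308 and 0.432 against 0 and 0.627. In CYP4V2, CYP7B1 and CYP20A1 library 2 was the higher one in both groups.

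**Figure D1:**
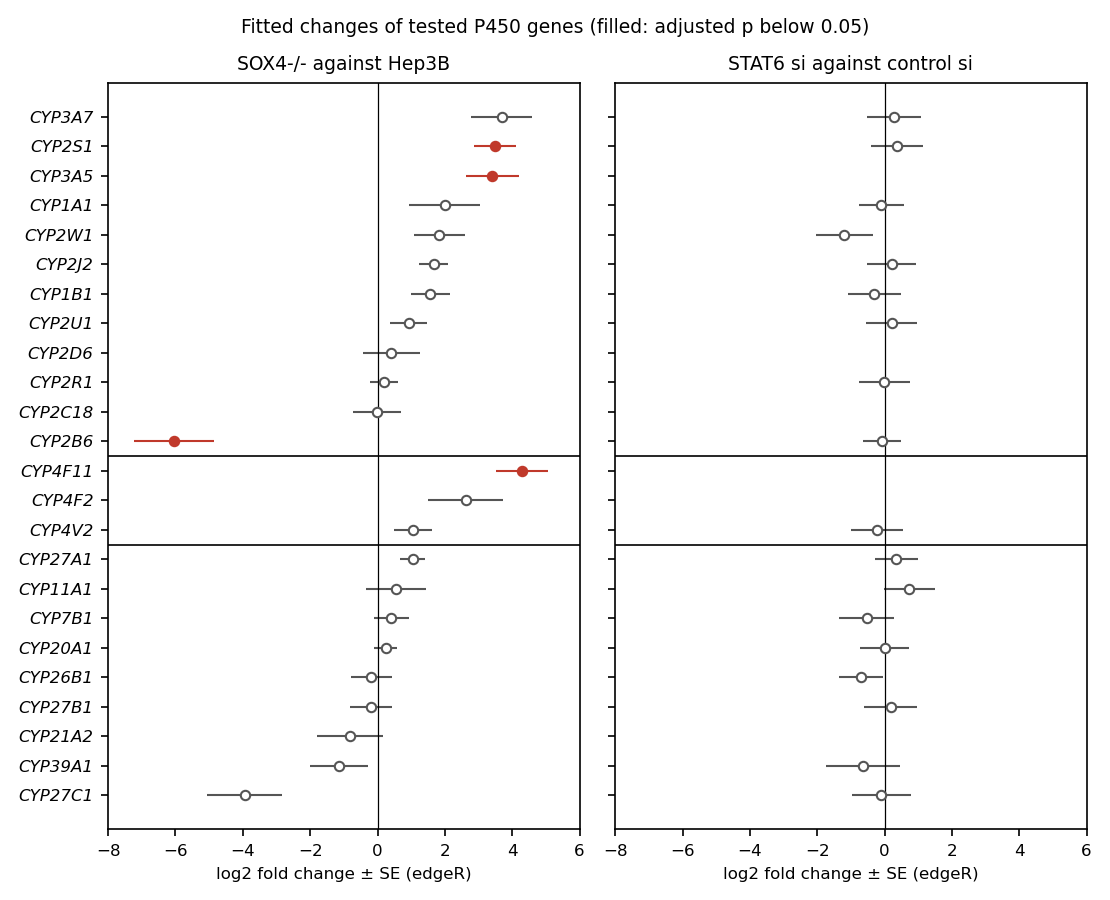
Log2 fold change with its standard error (edgeR) of 24 tested P450 genes, SOX4-/- against Hep3B on the left and STAT6 si against control si on the right, ordered within family groups (lines separate families 1 to 3, family 4, and families 7 and above); filled red points have an adjusted p below 0.05. The left panel runs from -6.04 (CYP2B6) to 4.29 (CYP4F11), and the right panel from -1.20 (CYP2W1) to 0.73 (CYP11A1).

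Whether the 2 perturbations differed in their effect was tested as a contrast over all 8 libraries. Of the 23 P450 genes, 20 were tested and 0 were called by edgeR, with 5 at an unadjusted p-value below 0.05, while DESeq2 called 1, CYP2B6. Among all 14313 genes tested, 0.0769% were called by edgeR and 6.56% had an unadjusted p-value below 0.05. For CYP2B6 the effect of SOX4-/- minus that of STAT6 si was -6.05 on the log2 scale (SE 1.25, adjusted p = 0.102), and it was called when Hep3B library 2, either control si library or STAT6 si library 2 was left out. The difference was 2.99 for CYP2S1 (SE 0.95, adjusted p = 0.366), 3.32 for CYP3A7 (SE 1.16, adjusted p = 0.486) and 2.91 for CYP2W1 (SE 1.13, adjusted p = 0.578). For CYP27C1, the fifth gene with an unadjusted p below 0.05, the adjusted p was 0.512, and no fold is given because SOX4-/- had at most 3 counts. Whether CYP2B6 differed between the perturbations thus depended on the tool and on single libraries.

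The partners of P450 enzymes were described from lists written with the design. Beside their counts, 5.89% of all genes tested in SOX4-/- against Hep3B were called (4.5% higher and 1.39% lower). The median log2 fold change over all genes tested was 0.01, and 50.4% of them had a value above 0. Of 8 electron donors and their reductases, 0 were called in SOX4-/- by edgeR. Their median log2 fold change was 0.31, with 6 above 0 and 2, POR among them, below 0. POR, the reductase that serves the microsomal P450 enzymes, had 76.2 and 116 CPM in Hep3B against 52.8 and 62.5 in SOX4-/- (log2 fold change -0.67, SE 0.36, adjusted p = 0.275). Of 12 genes of heme synthesis and breakdown, 11 had a log2 fold change above 0 (median of the 12, 0.48) and 1 was called. The called gene was the 1 below 0. HMOX1, the inducible heme oxygenase, fell from 35.8 and 172 CPM to 10.9 and 14.7 (log2 fold change -2.95, SE 0.69, adjusted p = 0.0498). ALAS1, the rate-limiting step of heme synthesis, had 65.3 and 51.5 CPM in Hep3B against 64.6 and 87 in SOX4-/-.

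Of 19 receptors and transcription factors known to control P450 genes, 17 were tested and 0 were called. AHR had 833 and 250 CPM in Hep3B against 760 and 606 in SOX4-/-, so that its lowest value in that table, like that of CYP1A1, was in Hep3B library 2. HNF4A, the hepatocyte factor, had 177 and 158 CPM in Hep3B against 343 and 271 in SOX4-/- (log2 fold change 0.94, SE 0.37, adjusted p = 0.157). NR1I3, the receptor through which phenobarbital induces CYP2B6, had 0 CPM in both Hep3B libraries and 0.364 and 0 in SOX4-/- and was not listed in the siRNA table, while NR1I2 was listed in neither table. Of the 6 other AHR targets, 5 were tested and 0 called, with a median log2 fold change of -0.12, and 1 of them, AHRR, had a value above 0 (5.54 and 1.78 CPM in Hep3B, 13.1 and 9.63 in SOX4-/-).

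Of 11 genes of bile acid synthesis other than P450 genes, 10 were tested and 2 were called. All 10 had log2 fold changes above 0 (median 1.53), beside 50.4% of all genes tested (median 0.01). BAAT, which conjugates bile acids with taurine or glycine, rose from 20.9 and 16.1 CPM to 202 and 121 (log2 fold change 3.19, SE 0.42, adjusted p = 0.0152). AKR1C4, a reductase of bile acid intermediates, rose from 0.259 and 0.148 CPM to 2.98 and 2.77 (log2 fold change 3.85, SE 0.74, adjusted p = 0.0329). Its Hep3B values lay below the count filter, so it passed only through SOX4-/- and had to be higher there. The count above 0 and the calls of this list are thus in part set by the filter. Of 4 vitamin D genes 0 were called, and CYP51A1, the lanosterol demethylase left out of the members, had 313 and 547 CPM in Hep3B against 463 and 544 in SOX4-/-. In STAT6 si 0 genes of these lists were called, as 0 genes were called in the whole table.

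**Figure D2:**
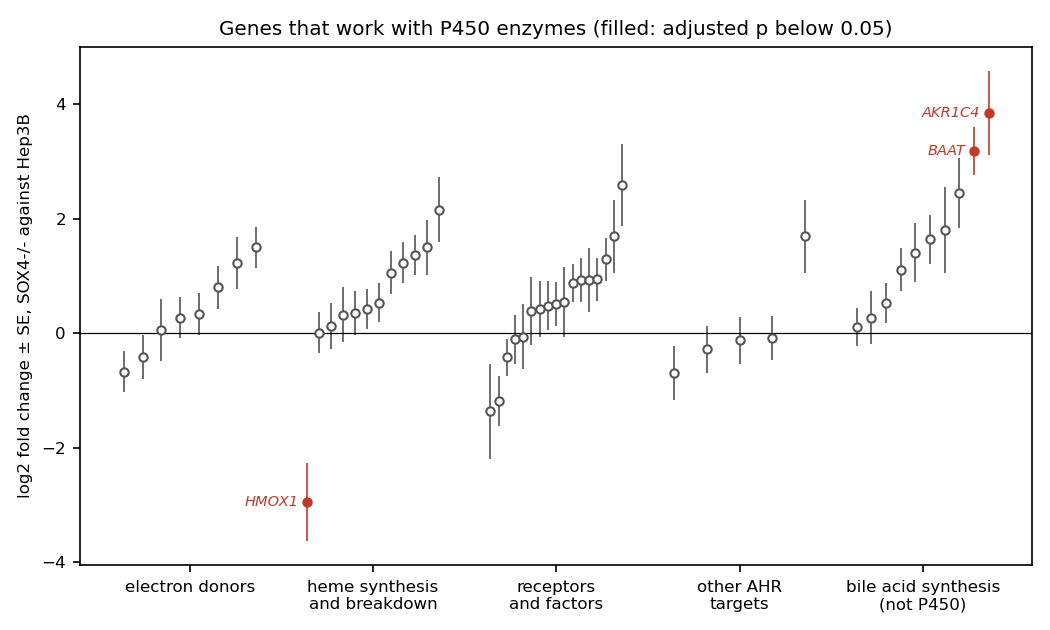
Log2 fold change with its standard error (edgeR), SOX4-/- against Hep3B, of the tested genes of 5 lists, each point a gene, ordered by value within its list; filled red points have an adjusted p below 0.05. HMOX1 (-2.95) was the called gene below 0, and BAAT (3.19) and AKR1C4 (3.85) were the called genes above 0.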

How the data were processed

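RNA-seq of 8 Hep3B libraries was used, 2 in each of 4 groups taken from the labels. The authors deposited expected counts (estimated read counts per RefSeq transcript, not normalized) in 1 table per comparison. The submitters' processing notes name STAR, Partek and hg38; versions are not given in the sources used here. Every listed transcript sums to at least 10 counts over its table, so lower ones had been left out. The design assumed counts. Transcripts were therefore summed by gene name and rounded, and each table was tested with edgeR 4.0.16 under R 4.3.3 (TMM, filterByExpr, glmQLFit, glmQLFTest) with Benjamini-Hochberg adjustment over all genes. That test returns no standard error. Every SE printed or drawn here is the absolute log2 fold change divided by the square root of the F statistic of the test. Log2 differences of single libraries used a prior count of 2. Lengths came from GENCODE transcripts. Estimation divides reads between near-identical genes, and how the strand was used in counting is not given, so CYP1B1, CYP2U1 and other genes with antisense partners may share reads with them.

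The named genes are P450 genes called in either comparison, the 4 with the highest mean CPM in each family group, and CYP1A1, CYP1B1, CYP2B6, CYP2C18, CYP2J2, CYP2R1, CYP2S1, CYP2W1 and CYP3A7 from the study's own list, which was chosen on these samples. CYP1A2, CYP3A4, CYP11A1, CYP26A1 and CYP27C1 were added after their values were seen. Members and lists were chosen with earlier results of these data known. Alternatives were DESeq2 1.42.0, another scaling, 2 other count filters, the library number as a block, GC and length offsets (mgcv 1.9.3), a fit of all 8 libraries and leaving out each library. The steps were tested on simulated data. The results of 1 P450 gene and 1 marker are not reported here. ChIP-seq and other data of the study were not analysed here.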

Additional observations from a re-analysis of the deposited data

How the results depend on the processing

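The 4 P450 genes called in SOX4-/- against Hep3B numbered 2 when every library had to hold at least 10 counts (CYP3A5 and CYP4F11 were then not tested) and 0 with the replicate block together with offsets for GC content and length, where 57 genes were called in all and the log2 fold changes were -5.38 for CYP2B6, 2.97 for CYP2S1 and 4.21 for CYP4F11. They numbered 0 to 6 when single libraries were left out, 0 without either SOX4-/- library and 6 without either Hep3B library. The other 6 alternatives gave 3 to 6. The replicate block alone gave 5 (CYP1A1, CYP2B6, CYP2S1, CYP3A7 and CYP4F11). The differences between library 2 and library 1 were uncorrelated between Hep3B and SOX4-/- (-0.08 across genes) and correlated in the siRNA table (0.87), but with 2 libraries a group and no pairing in the labels the libraries share only a number. CYP2B6 and CYP2S1 were each called in 10 of 13 settings, CYP4F11 in 8, CYP3A7 in 6 and CYP3A5 in 3. CYP4F11 and CYP3A5 were not tested with at least 10 counts in every library or in the fit of all 8 libraries. For them these settings count as not called. Without 1 library, an arm has 1 sample, which is assumed to vary like the other groups.

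In STAT6 si against control si the count was 0 in every alternative except the replicate block with offsets for GC content and length, which called 1, CYP26B1 (-0.84, adjusted p = 1.3e-06, within a range of 1.3e-06 to 1 over its alternatives). The replicate block alone called 62 genes in that table and 0 P450 genes. For the difference between the perturbations the count was 1 (CYP2B6) by DESeq2 and 0 to 1 when single libraries were left out. Over all genes, calls in SOX4-/- ranged from 21 to 2298, DESeq2 calling 2160 of 14415, and DESeq2 called 167 genes for the difference.

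Directions turned for CYP26B1 in SOX4-/- (0.10 with the replicate block, -0.86 to 1.08 without single libraries) and for CYP2B6 in STAT6 si (0.04 with median-of-ratios factors and by DESeq2, 0.05 with the offsets, -0.55 to 0.27 without single libraries). The causes were not tested. At the depth of these libraries, 9 P450 genes of the knockout table and 5 of the siRNA table could not be tested.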
